A study of Mus musculus with 2 samples.

Results

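Endothelial cells of the newborn mouse cortex were described in 2 single-cell libraries, one labelled WT and one labelled STINGf/f;Nestin-Cre and here called cKO. The cells were chosen by their own transcripts. Kept barcodes had at least 500 detected genes and at most 10% of their unique molecular identifiers (UMIs, the counted transcript molecules) in mitochondrial genes. Among them, a cell was selected on at least 5 raw UMIs of Cldn5, Flt1 and Pecam1 together, fewer UMIs of the mural genes Rgs5, Kcnj8, Pdgfrb and Notch3 than of those 3, fewer than 5 of C1qa, C1qb and C1qc, fewer than 5 of Col1a2, Dcn and Lum, and at most 2 of Neurod2 and Neurod6. The rule found 207 cells of 12846 kept cells and 19913 barcodes. The WT library held 146 of them and the cKO library 61.

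Both libraries came from C57BL/6 mice on the day of birth (P0), from tissue labelled telencephalic, and the study's methods name papain-dissociated cerebral cortex and the 10x Chromium platform. In cKO mice the floxed STING gene is recombined by Cre under the Nestin promoter, a driver used for neural progenitors and their progeny, so endothelial cells are not its intended target. The control library is labelled WT, whereas the study's text names the control of this experiment STINGfl/fl, mice with the floxed gene. Each genotype had 1 library, the number of pooled animals is not given in the sources used here, and the libraries differed in sex-linked transcripts. Xist had 0 and 1011 UMIs in WT and cKO endothelial cells, and Ddx3y had 239 and 0, so sex and genotype cannot be told apart. Without replicates no test was possible. Values are given with 95% intervals (exact Poisson for a level, exact conditional binomial for a ratio) that cover counting error only, not the spread between animals.

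Endothelial cells line the inner face of all blood vessels. In the brain they form the blood-brain barrier, sealed by tight junctions of claudin-5 and occludin, poor in vesicles, and equipped with carriers such as the glucose transporter Glut1 (Slc2a1). Wnt ligands from neural cells acting through beta-catenin induce this state, vascular endothelial growth factor (VEGF) guides sprouting, and Notch, BMP and blood flow set arterial, capillary and venous identity. STING, encoded by Tmem173, is an adaptor that relays cytosolic DNA sensing to interferon and NF-kB signalling and is known to be well expressed in endothelium and macrophages.

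Vascular enhancers and promoters often carry ETS-type motifs, bound by factors such as Erg and Fli1. Upstream sequences of 3 genes enriched in these cells, of which Cldn5 and Flt1 are genes of the rule, are therefore shown first. They are the 250 bases before an annotated transcription start, 5′ to 3′ on the strand of the gene, from RefSeq on GRCm38.p6. Cldn5 lies at chr16:18776597-18776846, plus strand, Flt1 at chr5:147726012-147726261, minus strand, and the first of the 3 listed Egfl7 starts at chr2:26580833-26581082, plus strand. Capitals mark AGGAAG or its reverse complement CTTCCT.
Cldn5: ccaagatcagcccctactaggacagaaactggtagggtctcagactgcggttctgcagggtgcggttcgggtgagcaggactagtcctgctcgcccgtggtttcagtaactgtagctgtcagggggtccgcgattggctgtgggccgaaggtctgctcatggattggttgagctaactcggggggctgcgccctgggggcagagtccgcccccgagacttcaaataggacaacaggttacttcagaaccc
Flt1: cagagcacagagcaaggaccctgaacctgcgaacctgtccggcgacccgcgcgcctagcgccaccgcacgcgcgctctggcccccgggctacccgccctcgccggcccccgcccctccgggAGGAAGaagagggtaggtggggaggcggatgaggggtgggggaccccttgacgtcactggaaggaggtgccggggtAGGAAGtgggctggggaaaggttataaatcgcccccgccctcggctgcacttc
Egfl7: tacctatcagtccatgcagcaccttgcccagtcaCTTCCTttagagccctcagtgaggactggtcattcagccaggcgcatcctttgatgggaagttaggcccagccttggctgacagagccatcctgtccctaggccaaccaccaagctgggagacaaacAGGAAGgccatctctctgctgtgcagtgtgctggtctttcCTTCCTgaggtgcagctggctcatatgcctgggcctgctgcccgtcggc
The Cldn5 window held none of these letters, the Flt1 window held 2 matches and the Egfl7 window 3, while the windows of the other Egfl7 starts held 1 and 0. Windows of Kdr, Slc2a1 and Klf2, also searched but not shown, held 0 matches, and that of Tie1 held 1. Of the 50 genes most enriched in endothelial cells, 31 had an entry in the table, with 39 windows, and 18 of these (46.2%) held the motif, against 29.5% of all 32851 windows. The 18 windows belong to 16 genes, and windows of 1 gene are not independent. The KLF-type CCACCC, reverse complement GGGTGG, was in 35.9% against 28.1%, the SOX-type ACAAAG, reverse complement CTTTGT, in 20.5% against 16.5%, the GATA-type AGATAA, reverse complement TTATCT, in 12.8% against 9.99%, and the TCF/LEF-type TCAAAG, reverse complement CTTTGA, in 5.13% against 13.8%. The SOX-type and TCF/LEF-type motifs share the letters CAAAG and can overlap. The 50 genes include haemoglobin genes of red cells, of which Hbb-bs is 1 of the 5 genes with the GATA-type and Hba-a1 1 of the 14 with the KLF-type motif. Cldn5 and Flt1, which chose the cells, are among the 50 too. These shares describe letters in short windows and carry no test.

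The cells carried the markers of the label. All 24 further endothelial markers had at least 50 UMIs, and all 24 were at least 4-fold above the other kept cells in both libraries, where 431 of the 7868 genes with at least 50 UMIs (5.48%) were. Levels are CPM, the UMIs of a gene scaled to the same total in each sum of cells. Since these genes come from the cells that the rule chose, they describe the cells and are no test of the label. Cldn5, the main claudin of brain endothelium, stood at 3809 CPM (3739 to 3879) in WT and 3847 CPM (3736 to 3961) in cKO, against 55.7 and 16.4 CPM in the cells that were neither endothelial, mural nor microglial, here called remaining cells. Sox17, a transcription factor of arterial and barrier endothelium that the rule did not use, had 161 CPM (147 to 176) in WT and 312 CPM (280.5 to 345) in cKO, a log2 ratio of cKO over WT of 0.96 (0.75 to 1.15), and 2.16 and 1.26 CPM in remaining cells. It was detected in 115 of the 146 WT and 55 of the 61 cKO cells. After each cell was thinned to 2000 UMIs, Sox17 was found in 23.2% of WT and 42.1% of cKO members and in 0.0400% and 0.0751% of neurons (cells with at least 5 UMIs of Neurod2 and Neurod6), which lack the gene and show the level of free RNA. Unthinned, the share was 78.8% and 90.2%. Median depth was 14972 and 13638 UMIs in endothelial cells and 8997 and 9388 in neurons.

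The 25 genes most enriched over all other kept cells ranged from 30.5-fold to 81.4-fold on a scale of CPM + 10. Cldn5, the first by rank, and Flt1 are genes of the rule, so their enrichment follows from the choice of cells. Of the 25 genes, 16 were in the gene lists used here. The other 9 were Ctla2a, Itm2a, Igfbp7, Pglyrp1, Vwa1, Apod, Cd93, Sepp1 and AU021092. Ctla2a, a cathepsin inhibitor, stood at 1348 CPM in WT and 1396 CPM in cKO and at 17.1 and 4.88 CPM in remaining cells. Itm2a, a small transmembrane protein, stood at 2142 CPM in WT and 3555 CPM in cKO. Pglyrp1, a peptidoglycan-binding protein, stood at 1184 CPM in WT and 809.8 CPM in cKO, and Vwa1, a matrix protein, at 1332 CPM in WT and 727 CPM in cKO. Apod, a lipocalin carrier of lipids, had 452 CPM in WT and 722 CPM in cKO, but also 187 and 251 CPM in mural cells. Sepp1, the selenium carrier selenoprotein P, had 1759 CPM in WT and 4650.1 CPM in cKO a log2 ratio of 1.40 (1.35 to 1.46), and was also abundant in microglia, at 3469 and 3043 CPM. The last 500 bases of the longest Ramp2 transcript, among the enriched genes, lay wholly within transcripts annotated to Vps25, so the split of reads between these 2 genes is uncertain.

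**Figure D1:**
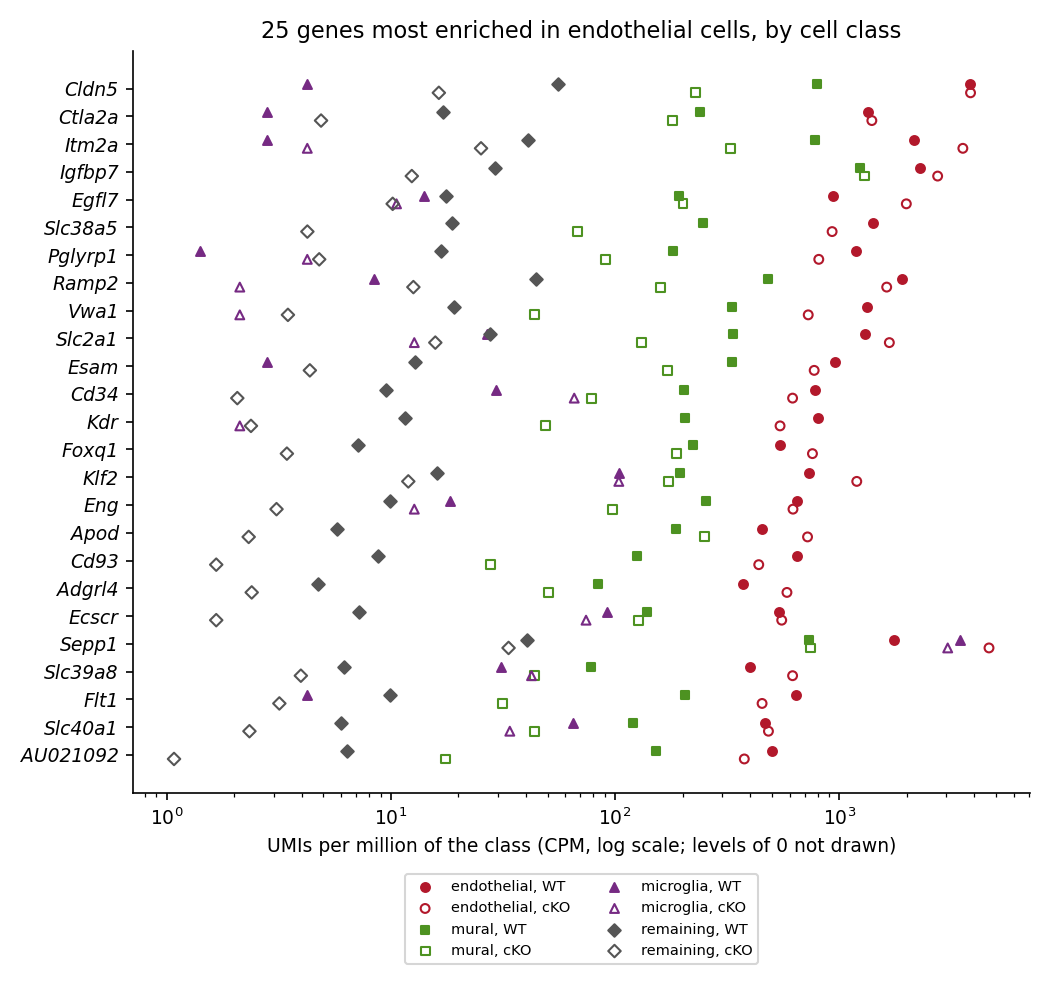
Level (CPM, log scale) of the 25 genes most enriched in endothelial cells, in endothelial, mural, microglial and remaining cells of the WT (filled) and cKO (open) library. Endothelial levels lie to the right of the remaining cells for all 25 genes, while Sepp1 in microglia overlaps the endothelial range. Cldn5, at 3809 against 55.7 CPM in WT, and Flt1 are genes of the rule.

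Endothelial cells were deep relative to the tissue. They held 2986584 UMIs in WT and 1178046 in cKO, with 1791 to 105054 and 1380 to 95237 UMIs per cell, and medians of 4334.5 and 3921 genes. The median over all kept cells was 6653 and 7629 UMIs. The deepest cell gave 3.52% of the WT and 8.08% of the cKO UMIs. The libraries shared 19 barcode sequences, none of them of an endothelial cell. The 3 genes of the rule summed to 7 to 395 UMIs per WT cell (median 73.5) and to 5 to 376 per cKO cell (median 70). Few cells lay beside the threshold. Sums of 5 to 9 were held by 3 WT and 4 cKO cells, with medians of 2620 and 1626 UMIs of all genes. Sums of 2 to 4 with the other bounds met were held by 7 and 5 cells outside the rule, with medians of 1147 and 1000 UMIs. The other bounds removed 43 WT and 12 cKO cells that had reached 5 UMIs, of which 21 and 4 had at least as many mural as endothelial UMIs. The neuronal bound was passed by 14 and 6 cells and the fibroblast bound by 13 and 4. Removed cells that were not classed as mural or microglial count among the remaining cells.

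Part of the endothelial cells carried RNA of other cell types. Mural cells (pericytes and smooth muscle) sit on the same vessels, and 53 of 146 WT and 13 of 61 cKO cells had at least 5 UMIs of the 4 mural genes. 50 and 11 cells had a mural sum of at least 10% of their endothelial sum, and 85 and 45 had none. The summed level of the 4 genes was 1219.8 CPM in WT and 674 CPM in cKO, against 3936 and 2862 CPM in mural cells, and 1 cKO cell gave 27.6% of the cKO mural UMIs. The 10 further mural markers summed to 911 and 508 CPM, with none at 0 in either library. Mural cells in turn held the 3 endothelial genes of the rule at 1109 CPM in WT and 299 CPM in cKO. Endothelial cells held them at 4853 and 4784 CPM. The part of this endothelial RNA in the mural values below was not tested. Haemoglobin RNA of red cells was 0.763% of WT and 1.61% of cKO UMIs, and the 5 cells with most of it held 81.6% and 89.1% of it. The 10 microglia markers summed to 67.3 and 72.2 CPM, with P2ry12 and Tmem119 at 0 in both libraries. The 7 radial glia and astrocyte markers summed to 187 and 24.6 CPM, against 3093 and 1739 in remaining cells. The 10 neuron markers summed to 419 and 246 CPM, against 8468 and 8851. The 6 fibroblast markers summed to 39.5 and 13.6 CPM with Col1a1 at 0, the 5 oligodendrocyte precursor markers to 47.5 and 17.8 CPM with Sox10 at 0, and the 4 choroid plexus markers to 129.6 and 166 CPM, nearly all Enpp2. The lymphatic master factor Prox1 had 1 UMI in each library. Other cells' RNA was thus higher in WT for the mural, glial and neuronal lists and higher in cKO for the erythroid list, and its part in the ratios below was not tested except where a value without those cells is given. Ratios that mattered are also given for the 96 WT and 50 cKO cells whose mural sum was under 10% of the endothelial sum, called mural-poor cells.

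**Figure D2:**
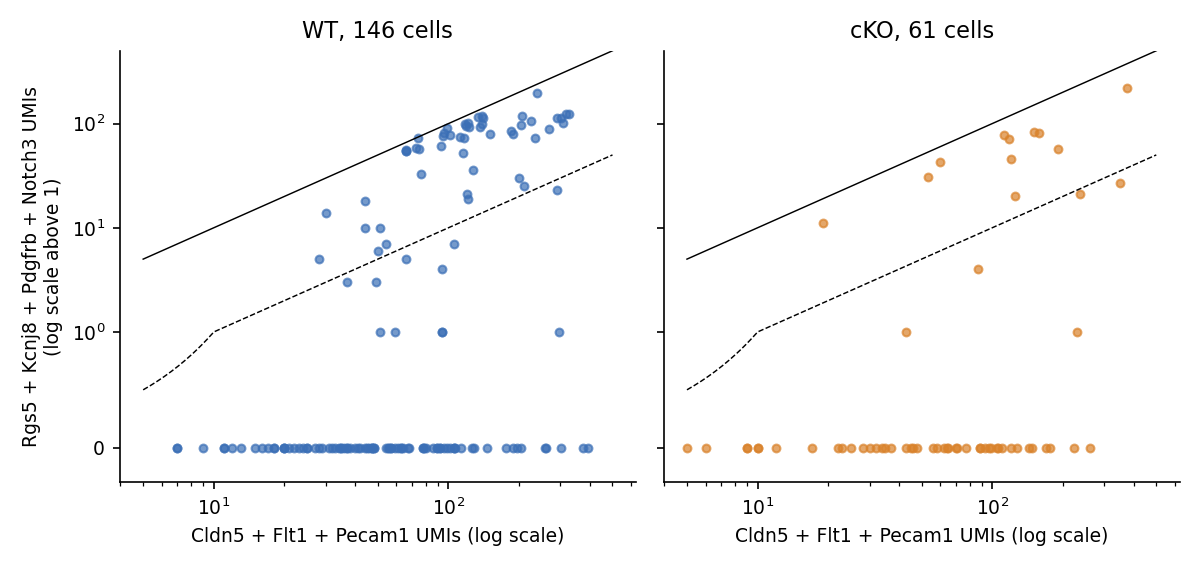
UMIs of the 3 endothelial genes (x axis, log scale) and of the 4 mural genes (y axis, log scale above 1) of the rule in each endothelial cell, 1 point per cell. The solid line is the bound of the rule and the dashed line a mural sum of 10% of the endothelial sum. 85 WT and 45 cKO cells lie at 0 mural UMIs.

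Endothelial cells were a smaller share of the cKO library. They were 2.16% of WT kept cells (exact binomial interval 1.82 to 2.53) and 1.00% of cKO kept cells (0.768 to 1.29), a difference of -1.15 percentage points (-1.59 to -0.727). Mural cells were 1.03% and 0.724%, a difference of -0.311 points (-0.638 to 0.0160), and microglia 0.872% and 0.526%, a difference of -0.346 points (-0.640 to -0.0547). The endothelial difference depended on the cells counted. It was -0.173 points when only the 54 WT and 38 cKO cells with no UMI of the mural, microglial, fibroblast and neuronal genes of the rule were counted, -0.661 points over all barcodes, and -2.79 points among cells with at least 1000 genes and at most 5% mitochondrial UMIs (59 WT and 10 cKO endothelial cells). One dissociation per genotype sets these shares, and dissociation and genotype cannot be told apart.

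The targeted gene was examined first among the expression ratios. Tmem173 had 67 UMIs or 22.4 CPM (17.4 to 28.5) in WT, and 8 UMIs or 6.79 CPM (2.93 to 13.4) in cKO endothelial cells, a log2 ratio of cKO over WT of -1.65 (-2.99 to -0.66). It was detected in 42 of 146 and 7 of 61 cells. Microglia had 23 UMIs or 32.4 CPM (20.5 to 48.6) in WT, and 3 UMIs or 6.36 CPM (1.31 to 18.6) in cKO, a log2 ratio of -2.16 (-4.73 to -0.62). Mural cells had 8 and 3 UMIs, a log2 ratio of -0.48 (-3.16 to 1.45) whose interval spans 0. Remaining cells had 34 UMIs or 0.634 CPM (0.439 to 0.886) in WT, and 4 UMIs or 0.0732 CPM (0.0199 to 0.187) in cKO. In WT the endothelial and microglial intervals overlapped and both lay above that of remaining cells. In cKO the endothelial interval lay above that of remaining cells and overlapped those of microglia and mural cells. Tmem173 was thus lower in cKO in the endothelial, microglial and remaining cells, beyond counting error. Remaining cells include removed cells with endothelial RNA, whose part in their Tmem173 UMIs was not tested. Endothelial cells and microglia are outside the neural lineage. The ratio was -1.55 (-3.18 to -0.37) in mural-poor cells, -0.80 after thinning and -0.19 among cells with at least 1000 genes and at most 5% mitochondrial UMIs, of which cKO had 10. With 8 cKO UMIs, any finer statement was beyond this depth.

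Nes, the intermediate filament whose promoter drives the Cre, was read in these cells too. Its UMIs do not count the Cre transgene, and UMIs per gene do not show whether the floxed part of Tmem173 was removed. Recombination in these cells was not tested. The values of Nes are a description. Nes had 786 UMIs or 263 CPM (245 to 282) in WT, and 108 UMIs or 91.7 CPM (75.2 to 111) in cKO endothelial cells. Its log2 ratio was -1.52 (-1.83 to -1.23), and it was detected in 120 of 146 and 32 of 61 cells. In WT its level was above the 47.0 CPM of remaining cells and the 191 CPM of mural cells. In cKO the endothelial 91.7 CPM lay below the 139.7 CPM of mural cells. The ratio was -1.56 (-1.96 to -1.18) in mural-poor cells and -0.21 (-0.29 to -0.13) in remaining cells.

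Ratios across all genes give the scale for what follows. Of 7868 genes with at least 50 endothelial UMIs over both libraries, 362 (4.6%) were at least 2-fold higher in cKO and 1131 (14.4%) at least 2-fold lower, on the ratio of CPM with 0.5 UMIs added. The median log2 ratio was -0.11, and the interquartile range was -0.64 to 0.34. With edgeR's trimmed mean of M-values (TMM) scaling, 539 (6.85%) were higher and 924 (11.7%) lower. The shares of 4.6% and 14.4% are the background for every list count below, unless another setting is named. The minimum counts both libraries together, so a gene with fewer than 50 UMIs in 1 library passed only with the UMIs of the other. Such genes are in these shares and in the lists below, and their ratios are limited by this filter. The endothelial markers moved little as a group. Of the 24, 1 was at least 2-fold higher, Egfl7, a secreted vessel protein, with 2811 and 2344 UMIs and a log2 ratio of 1.08 (1.00 to 1.16), and 2 at least 2-fold lower. These were Icam2, an endothelial adhesion molecule, with 787 and 86 UMIs and -1.84 (-2.19 to -1.53), and Ly6a (Sca-1), with 447 and 57 UMIs and -1.62 (-2.05 to -1.23). Their median was -0.01.

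**Figure D3:**
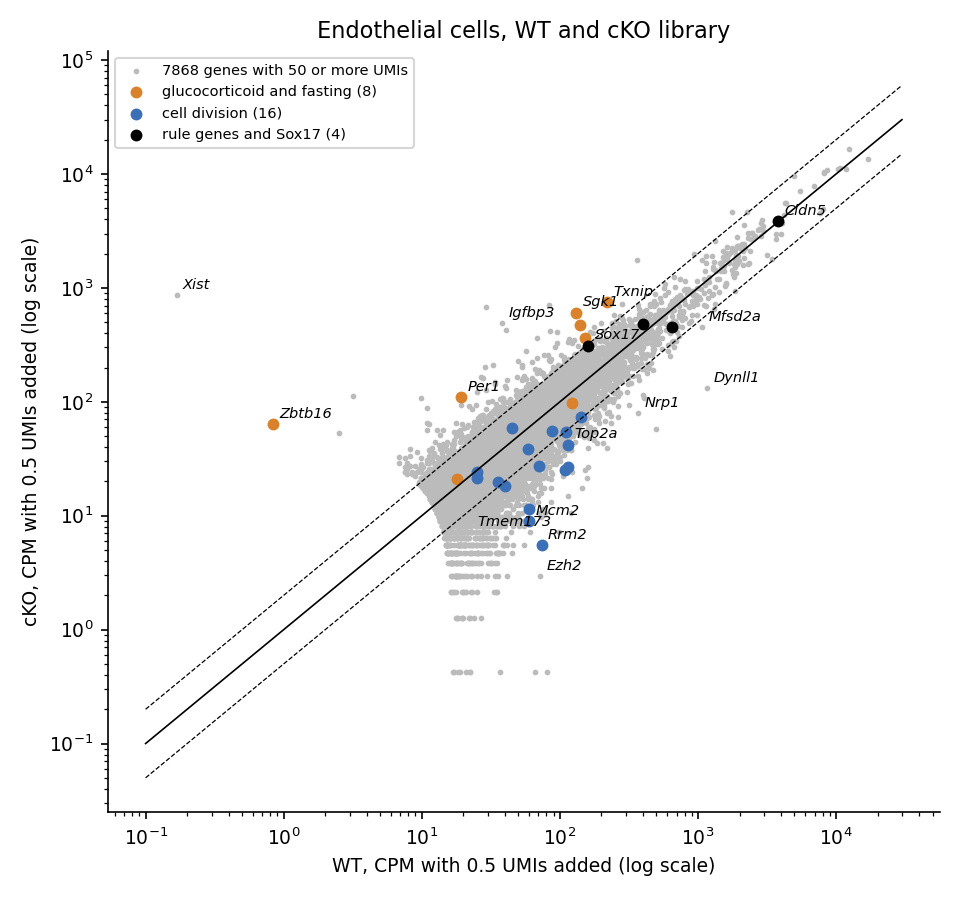
Level of each gene with at least 50 UMIs in WT (x axis) and cKO (y axis) endothelial cells, as CPM with 0.5 UMIs added, both axes on a log scale. The solid line marks equal levels and dashed lines a 2-fold difference. Of the 8 glucocorticoid and fasting genes drawn, 6 lie above the upper dashed line, against 4.6% of all genes. Zbtb16 among them reached 50 UMIs only through cKO, and list members with fewer UMIs are not drawn. Below the lower line lie 9 of the 16 cell division genes, against 14.4% of all genes.

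Most of the read genes known to be induced by glucocorticoid hormone or fasting were higher in cKO endothelial cells. Of the 12 on the list, 8 had at least 50 UMIs, with a median log2 ratio of 1.76 against -0.11 over all genes. Of these 8, 6 were at least 2-fold higher in cKO, against 4.6% of all genes, and none lower. Zbtb16, 1 of the 6, reached 50 UMIs only through cKO, so the filter admitted it because it was high there. With a minimum of 20 UMIs, 7 of 12 were at least 2-fold higher, against 4.99% of all genes at that minimum, with a median of 1.44. Sgk1, a kinase induced by glucocorticoids, had 131 CPM (119 to 145) in WT and 606 CPM (562 to 652) in cKO, a log2 ratio of 2.21 (2.03 to 2.39), and was detected in 104 of the 146 WT and 57 of the 61 cKO cells. Zbtb16, a zinc-finger transcription factor, had 2 and 74 UMIs, in 2 of the 146 WT and 36 of the 61 cKO cells. Its ratio of 6.24 (4.65 to 9.62) rests on 2 WT UMIs. Per1, a core clock repressor that glucocorticoids also induce, had 19.1 CPM (14.5 to 24.7) in WT and 109.5 CPM (91.4 to 130.1) in cKO and a ratio of 2.51 (2.06 to 3.00). Txnip, an inhibitor of thioredoxin and of glucose uptake, had 219 CPM (203 to 236) in WT and 752 CPM (703 to 803) in cKO (1.78, 1.63 to 1.93), and Cdkn1a, the cell cycle inhibitor p21, had 140.0 CPM (127 to 154) in WT and 470.3 CPM (432 to 511) in cKO (1.75, 1.56 to 1.94). Tsc22d3, which encodes the glucocorticoid-induced leucine zipper, had 456 and 429 UMIs and a ratio of 1.25 (1.06 to 1.45), or 0.77 as a mean over cells. Of the remaining members, Sult1a1 stood at 0.22 (-0.56 to 0.92) and Angptl4, a fasting-induced lipase inhibitor, at -0.33 (-0.65 to -0.03). Fkbp5, a further classical glucocorticoid target, had only 35 and 10 UMIs, a ratio of -0.42 (-1.64 to 0.58). Pdk4, Arrdc2 and Hif3a had 19, 22 and 9 UMIs in WT and 4, 2 and 11 in cKO. Of the members that the minimum of 20 UMIs added, Fkbp5, Pdk4 and Arrdc2 were thus lower in cKO, Arrdc2 by more than 2-fold. On still fewer UMIs in mural-poor cells, Pdk4 stood at -0.42 (-3.10 to 1.51), Arrdc2 at -2.31 (-8.25 to -0.10) and Hif3a at 2.45 (0.28 to 5.97).

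The higher levels were spread over cells. The summed list was at a median of 848 CPM per WT cell and 2428 CPM per cKO cell, with interquartile ranges over cells of 684 to 1131 and 1748 to 2995 that did not overlap. After thinning to 2000 UMIs, Sgk1 was found in 19.0% of WT and 68.4% of cKO members, Txnip in 29.6% of WT and 64.9% of cKO members and Cdkn1a in 21.1% of WT and 54.4% of cKO members. In remaining cells the same genes gave other ratios, 0.27 (0.18 to 0.37) for Sgk1, 0.13 (-0.04 to 0.30) for Zbtb16, 0.37 (0.31 to 0.43) for Txnip, 0.01 (-0.10 to 0.13) for Cdkn1a and -0.17 (-0.24 to -0.10) for Tsc22d3, while Per1 was higher there too, at 1.93 (1.80 to 2.07). The summed list stood at 832 CPM in WT and 2506 CPM in cKO over all endothelial cells. It was also higher in cKO in the other classes, at 644 CPM in WT and 934 CPM in cKO for mural cells, at 302 CPM in WT and 524 CPM in cKO for microglia and at 239 CPM in WT and 288 CPM in cKO for remaining cells. The mural sums include the RNA of endothelial cells described above. In mural-poor endothelial cells the ratios were 1.91 (1.68 to 2.15) for Sgk1, 5.39 (3.78 to 8.77) for Zbtb16, 2.21 (1.65 to 2.83) for Per1 and 1.40 (1.14 to 1.66) for Tsc22d3. Without the cells that held blood RNA, 6 of 8 genes were at least 2-fold higher, against 4.49% of all genes in that setting.

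Because 6 of these genes were higher together, their upstream windows were searched for the glucocorticoid receptor hexamer TGTTCT, reverse complement AGAACA, and the circadian E-box CACGTG, its own reverse complement. 5 of the 6 genes had an entry, with 14 windows in all, and Zbtb16 had none. The hexamer was in 4 windows of 2 genes, Sgk1 and Tsc22d3, or 28.6% of the windows against 16.1% of all 32851. The E-box was in 2 windows, 1 each of Per1 and Sgk1, or 14.3% against 6.02%. Windows of 1 gene share its locus and are not independent. Besides the Sgk1 window shown, the hexamer had 3 matches in the Sgk1 window chr10:21993640-21993889, with the letters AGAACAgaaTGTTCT, and 1 in chr10:21991973-21992222. The E-box of Sgk1 was in chr10:21993640-21993889. A single window each is shown, Sgk1 (chr10:21881934-21882183, plus strand), Tsc22d3 (chrX:140600523-140600772, minus strand) and Per1 (chr11:69098699-69098948, plus strand), with the hexamer in capitals in the first pair and the E-box in Per1.
Sgk1: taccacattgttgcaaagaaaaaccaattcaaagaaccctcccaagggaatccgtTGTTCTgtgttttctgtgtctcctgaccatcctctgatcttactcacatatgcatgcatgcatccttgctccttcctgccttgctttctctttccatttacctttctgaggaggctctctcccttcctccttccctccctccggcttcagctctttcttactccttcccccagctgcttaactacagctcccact
Tsc22d3: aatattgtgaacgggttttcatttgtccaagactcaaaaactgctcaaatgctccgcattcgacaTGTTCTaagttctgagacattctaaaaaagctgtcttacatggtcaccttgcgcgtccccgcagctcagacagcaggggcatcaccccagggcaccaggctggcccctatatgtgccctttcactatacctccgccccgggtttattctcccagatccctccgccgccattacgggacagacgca
Per1: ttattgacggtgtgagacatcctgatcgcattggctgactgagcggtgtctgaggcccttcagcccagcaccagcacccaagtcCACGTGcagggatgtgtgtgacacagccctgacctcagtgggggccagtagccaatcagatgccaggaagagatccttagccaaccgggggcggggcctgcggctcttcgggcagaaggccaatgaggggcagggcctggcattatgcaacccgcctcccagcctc
A match describes these letters only and is not a bound site.

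Cell division genes were lower in cKO endothelial cells. All 16 had at least 50 UMIs, and 9 were at least 2-fold lower in cKO and none at least 2-fold higher, against 14.4% of all genes lower, with a median log2 ratio of -1.08. All 6 genes of DNA replication were among the 9, with 3 of the 10 mitotic genes. Rrm2, a subunit of ribonucleotide reductase, had 220 and 6 UMIs, a log2 ratio of -3.74 (-5.32 to -2.71). The helicase subunits Mcm2, Mcm3, Mcm5 and Mcm6 had 179, 326, 179 and 341 UMIs in WT and 10, 29, 13 and 31 in cKO, with ratios from -2.75 to -2.10. Pcna, the sliding clamp of DNA polymerase, stood at -1.37 (-1.97 to -0.84). Among the mitotic genes, Top2a stood at -1.44 (-1.92 to -1.02), Tpx2 at -1.14 (-1.92 to -0.50) and Ube2c at -1.02 (-1.43 to -0.63), whereas the other 7 did not reach 2-fold. Of these, Cdk1 stood at -0.94 (-1.30 to -0.61), Ccnb2 at -0.84 (-1.58 to -0.20), Birc5 at -0.66 (-1.08 to -0.27) and Mki67 at -0.61 (-1.12 to -0.14). Aurkb at -0.20 (-0.94 to 0.45), Ccnb1 at -0.06 (-0.76 to 0.56) and Cenpf at 0.39 (-0.06 to 0.81) were nearest to no change or higher. In remaining cells the median of the 16 was -0.63, and Pcna was at 0.33 (0.26 to 0.40). The summed list went the other way in mural cells, at 622 CPM in WT and 1617 CPM in cKO, and was similar in microglia, at 1805 CPM in WT and 1866 CPM in cKO.

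Few cells carried the mitotic RNA. At least 5 UMIs of 10 mitotic genes were held by 34 of 146 WT cells (23.3%, 16.7 to 31) and by 8 of 61 cKO cells (13.1%, 5.84 to 24.2), intervals that overlapped. After thinning, at least 2 such UMIs were held by 20 of 142 and 2 of 57 cells (14.1%, 8.82 to 20.9, and 3.51%, 0.428 to 12.1). The 5 highest cells held 51.6% of the WT and 85.7% of the cKO mitotic UMIs, so single cKO cells weighed heavily on the mitotic ratios, as for Cenpf, of which 1 cell gave 78.3%. In mural-poor cells 15 of the 16 genes were at least 2-fold lower in cKO, against 13.1% of all genes there. Without the cells that held blood RNA, 7 of the 16 were, against 13.5% of all genes, with a median of -0.78.

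**Figure D4:**
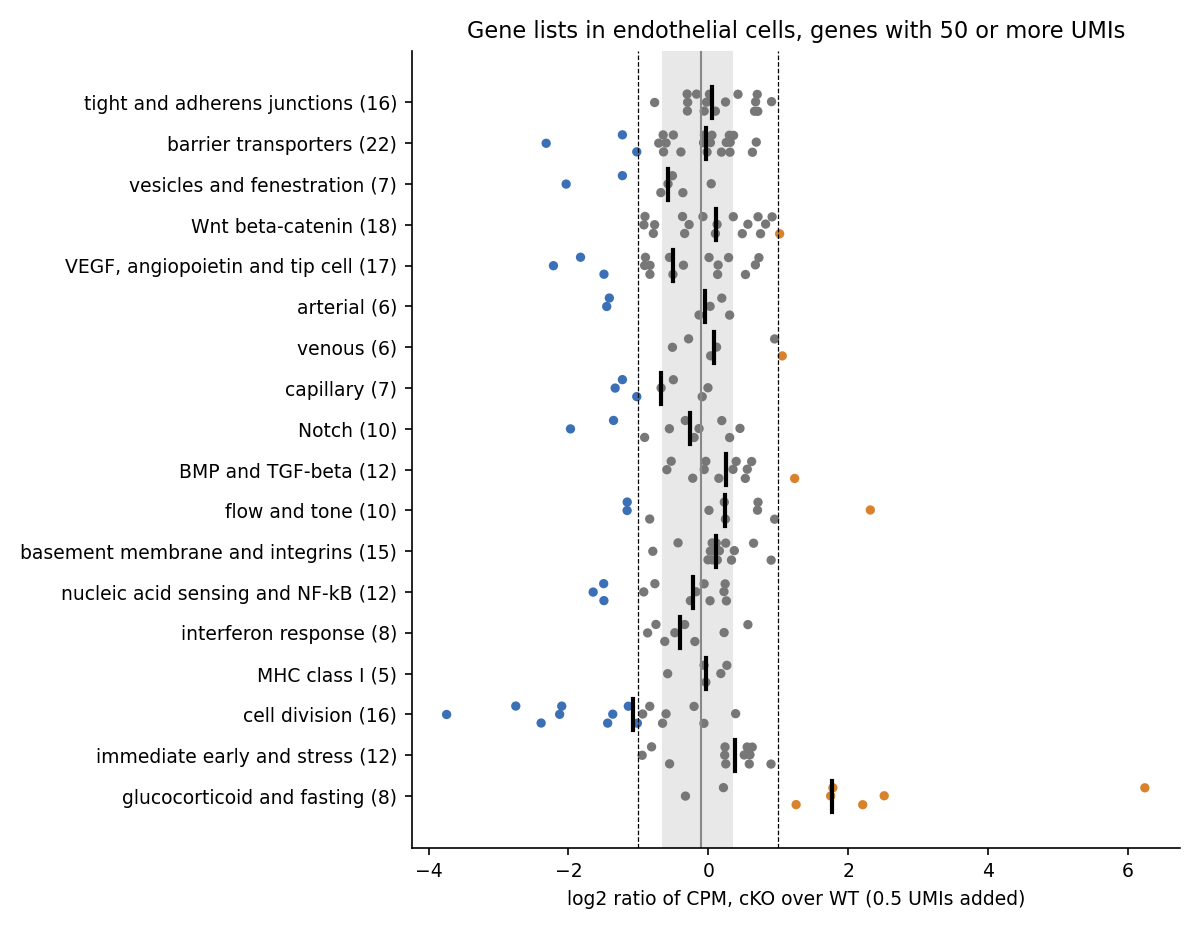
Log2 ratio of cKO over WT (x axis) of each gene with at least 50 endothelial UMIs, by list, with the number of genes in brackets. Bars are medians, the grey band and line are the interquartile range and the median (-0.11) of all genes, dashed lines mark 2-fold, and genes past them are coloured. The glucocorticoid and fasting list is centred at 1.76 and the cell division list at -1.08. The medians of the barrier, junction and Wnt lists lie near that of all genes, while their single genes spread to either side.

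The 12 genes that were highest in cKO relative to WT by the naming rule included secreted and matrix-associated proteins. Igfbp3, a binding protein of insulin-like growth factors, had 38.2 CPM (31.5 to 45.9) in WT and 489.8 CPM (451 to 531) in cKO, a log2 ratio of 3.68 (3.39 to 3.98), and was detected in 37 of the 146 WT and 53 of the 61 cKO cells. Ctgf, a matricellular target of YAP and of TGF-beta, had 83.7 CPM (73.7 to 94.8) in WT and 711 CPM (664 to 761) in cKO (3.09, 2.88 to 3.30). Timp3, an inhibitor of metalloproteinases, had 40.5 CPM (33.6 to 48.4) in WT and 427 CPM (390.5 to 466) in cKO (3.39, 3.11 to 3.70) and was found in 5.63% of WT and 54.4% of cKO members after thinning. These 3 genes stood at 0.06 (-0.10 to 0.22), -0.19 (-0.43 to 0.04) and 0.21 (0.13 to 0.30) in remaining cells. Ddit4, an inhibitor of mTORC1 that stress and glucocorticoids induce, had 32 and 104 UMIs (3.03, 2.46 to 3.66), and Pik3ip1, an inhibitor of phosphoinositide 3-kinase, 80 and 194 UMIs (2.61, 2.24 to 3.01). Gata2, a transcription factor of endothelium and blood, had 98 and 246 UMIs (2.67, 2.33 to 3.02), and Itpka, an inositol trisphosphate kinase, had 7 and 62 UMIs (4.40, 3.36 to 5.86). 8430408G22Rik had 85 and 237 UMIs (2.82, 2.46 to 3.20). Zbtb16, described above, was the other gene spread over many cells.

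Some of the 12 need a limit beside their value. Retnlg and Stfa1, neutrophil genes, had 9 and 132 UMIs and 29 and 128 UMIs, and all cKO UMIs of both came from 1 cell each. Gm8730 had 87 and 796 UMIs and a ratio of 4.53 (4.22 to 4.87), and it was as high in remaining cells, at 4.63 (4.56 to 4.71). 85.3% of the 31-base words in the last 500 bases of its longest transcript occur in transcripts of other genes, most often Rplp0, so its counts are uncertain. In remaining cells 4 of the 12 genes were at least 2-fold higher, Gm8730, Retnlg, 8430408G22Rik and Gata2.

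Most of the 12 lowest genes were lower in remaining cells too. In remaining cells 9 of the 12 were at least 2-fold lower as well, with ratios from -2.98 to -0.18 over the 12. Dynll1, a dynein light chain, had 1163 CPM (1124 to 1202) in WT and 132 CPM (112 to 155) in cKO, a log2 ratio of -3.13 (-3.37 to -2.90), and stood at -2.06 (-2.09 to -2.04) in remaining cells. Ezh2, the histone H3 lysine methyltransferase of Polycomb, had 214 and 3 UMIs (-4.60, -7.10 to -3.25) and -2.72 (-2.81 to -2.63) in remaining cells. Mrpl14, Coa3, Uqcc2 and Rexo2, of mitochondrial translation, respiratory chain assembly and RNA turnover, stood at -3.78, -2.57, -2.48 and -3.06 in endothelial cells and at -2.98, -2.27, -1.64 and -2.10 in remaining cells. Pmepa1, an inhibitor of TGF-beta signalling, had 1492 and 68 UMIs (-3.10, -3.49 to -2.76) and -1.83 (-1.92 to -1.74) in remaining cells. Rrm2 and 2810417H13Rik (a PCNA-binding protein) stood at -3.74 and -2.85 against -1.08 and -1.15.

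The other members of the 12 were Ccnd2, Ung and Fabp7. Ccnd2, cyclin D2, had 342 and 17 UMIs, a ratio of -2.95 (-3.78 to -2.29), against -0.53 (-0.56 to -0.50) in remaining cells. Ung, a uracil-DNA glycosylase, had 109 UMIs in 34 WT cells and 0 in cKO, at least 14.3-fold lower when 3 UMIs over the cKO cells are taken as the limit a count of 0 allows, and stood at -0.18 (-0.32 to -0.04) in remaining cells. Fabp7, a radial glia gene, had 362 and 12 UMIs, of which 1 WT cell gave 48.1%.

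**Figure D5:**
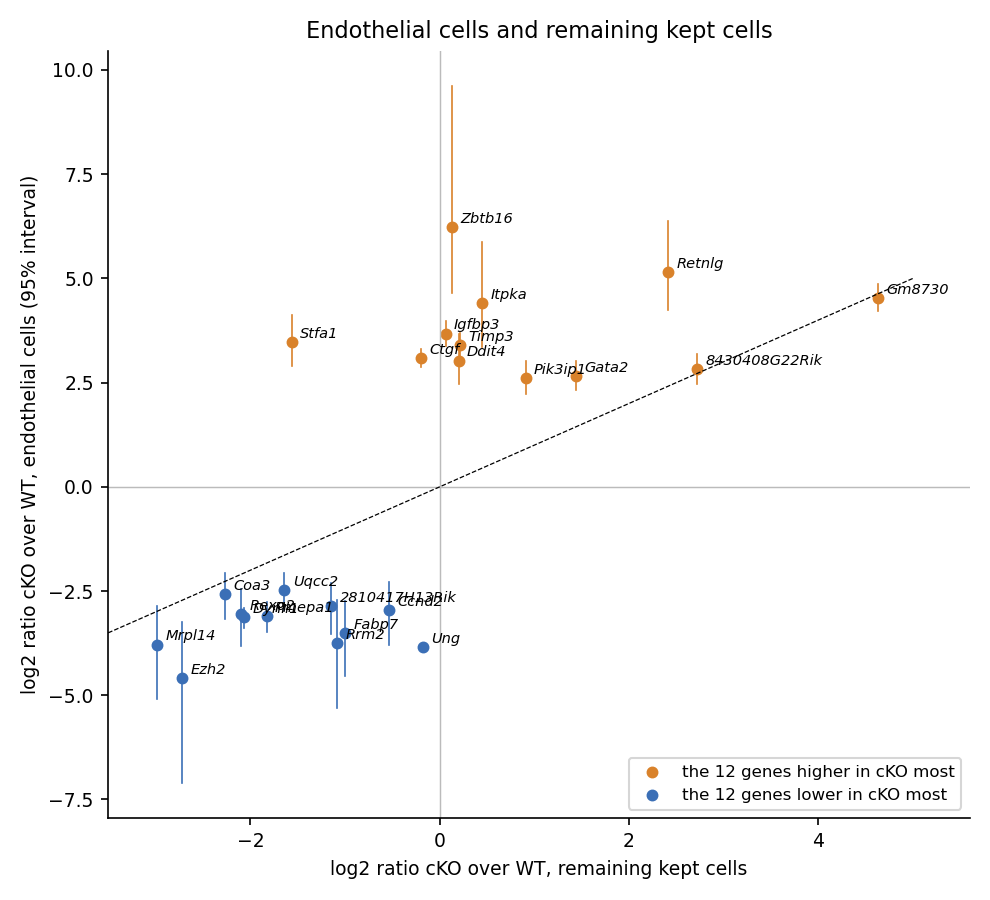
Log2 ratio of cKO over WT in endothelial cells (y axis, 95% intervals) against that in remaining kept cells (x axis) for the 12 genes highest and the 12 lowest in cKO endothelial cells. The dashed line marks equal ratios, and Ung, with 0 cKO UMIs, is drawn at its bound. Igfbp3, Ctgf, Timp3, Ddit4 and Zbtb16 lie near 0 on the x axis, whereas Gm8730 and 8430408G22Rik lie near the line.

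Junction genes were near or below 2-fold. Of the 20 tight and adherens junction genes, 16 had at least 50 UMIs, and none was at least 2-fold higher or lower in cKO, with a median of 0.06. Cldn5 stood at 0.01 (-0.04 to 0.06), though it was one of the genes that chose the cells. Ocln (occludin) had 142 CPM (129 to 156) in WT and 190.1 CPM (166 to 217) in cKO (0.42, 0.18 to 0.66) and Cdh5, the endothelial cadherin, 320.1 CPM (300.1 to 341) in WT and 511 CPM (471 to 554) in cKO (0.68, 0.53 to 0.82). Tjp1 (ZO-1), the scaffold beneath the junction, was the highest relative to WT, at 712 and 525 UMIs and 0.90 (0.74 to 1.07), and Ctnnb1, beta-catenin, the lowest, at 2096 and 485 UMIs and -0.77 (-0.91 to -0.63). In mural-poor cells Tjp1 was past 2-fold at 1.13 (0.91 to 1.35). After thinning Ctnnb1 stood at -1.17, and Cgnl1, a junction scaffold at 0.71 (0.48 to 0.93), reached 1.44 in cells with no UMI of the other cell types' genes. Lsr, of tricellular junctions, stood at 0.70 (0.49 to 0.90) and the adhesion molecules Esam and F11r at -0.30 (-0.41 to -0.20) and 0.10 (-0.15 to 0.34). Cldn1 and Cldn3 had 0 UMIs in both libraries, which allows up to 1.00 CPM in WT and 2.55 CPM in cKO, and Cldn12 and Cgn had 7 and 2 UMIs and 2 and 0 UMIs.

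Of the 24 barrier transporters and receptors, 22 had at least 50 UMIs, with a median of -0.04. None was at least 2-fold higher in cKO and 3 were at least 2-fold lower, near the share of 14.4% of all genes. The 3 were Mfsd2a, Tfrc and Slco1a4. Mfsd2a, which carries omega-3 lysolipids and restrains vesicle transport, had 1067 CPM (1031 to 1105) in WT and 455 CPM (417 to 495) in cKO, a log2 ratio of -1.23 (-1.36 to -1.10), and was found in 85.2% of WT and 47.4% of cKO members after thinning. Tfrc, the transferrin receptor, had 689 CPM (660.0 to 719.9) in WT and 339 CPM (306 to 374) in cKO (-1.02, -1.18 to -0.87), at the edge of 2-fold. Slco1a4, an organic anion carrier, had 145 and 11 UMIs (-2.32, -3.41 to -1.50), in 38 of the 146 WT and 6 of the 61 cKO cells. Of the other carriers, Slc2a1 had 1302 CPM (1262 to 1344) in WT and 1671 CPM (1598 to 1747) in cKO (0.36, 0.28 to 0.44), and the large neutral amino acid carrier Slc3a2 with Slc7a5 stood at 0.30 (0.23 to 0.37) and -0.07 (-0.26 to 0.12). The thyroid hormone carrier Slco1c1 and the anion carrier Slc22a8 stood at -0.64 (-0.75 to -0.53) and -0.65 (-0.80 to -0.50). The efflux pumps Abcb1a (P-glycoprotein) and Abcg2 stood at 0.26 (-0.02 to 0.52) and 0.31 (0.12 to 0.49) and Abcc4 at 0.68 (0.29 to 1.07). Ratios in mural-poor cells were -1.09 (-1.25 to -0.93) for Mfsd2a, -1.05 (-1.25 to -0.87) for Tfrc and -2.25 (-3.42 to -1.36) for Slco1a4.

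Of the 8 genes of vesicles and fenestration, 7 had at least 50 UMIs, with a median of -0.58. None was at least 2-fold higher and 2 were at least 2-fold lower, against 14.4% of all genes. The first was Mfsd2a, which restrains vesicle transport, unlike the caveolar genes of this list, and which the barrier and capillary lists count too. The other was Ehd2, a membrane ATPase of caveolar necks with 150 and 14 UMIs (-2.03, -2.98 to -1.29). Cav1, the caveolar coat protein caveolin-1, had 211 CPM (195 to 228) in WT and 132 CPM (112 to 154) in cKO (-0.68, -0.95 to -0.43), while Ptrf (cavin-1) stood at 0.04 (-0.21 to 0.28). Plvap, the diaphragm protein of leaky and fenestrated vessels, had 13 and 12 UMIs, or 4.35 and 10.2 CPM, a ratio of 1.23 (-0.04 to 2.48).

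Genes of Wnt and beta-catenin signalling had a median near that of all genes, but single genes ranged from -0.92 to 1.02. Of 19, 18 had at least 50 UMIs, with a median of 0.11. Against 4.6% of all genes higher and 14.4% lower, 1 was at least 2-fold higher and none lower. This was Fzd4, the Norrin and Wnt receptor, with 149 and 119 UMIs (1.02, 0.66 to 1.38). Its partners Lrp5, Lrp6 and Tspan12 stood at 0.10 (-0.57 to 0.71), 0.71 (0.32 to 1.09) and -0.34 (-0.76 to 0.05), and Adgra2 (Gpr124) of the Wnt7 receptor complex at -0.08 (-0.55 to 0.36). The target genes did not move one way. Axin2, Apcdd1 and Tcf7 stood at 0.75 (0.26 to 1.22), 0.82 (0.35 to 1.28) and 0.56 (0.28 to 0.84), and Lef1, Notum, Nkd1 and Tnfrsf19 at -0.79 (-1.13 to -0.47), -0.92 (-1.43 to -0.47), -0.28 (-0.51 to -0.05) and -0.91 (-1.38 to -0.48). The barrier-associated transcription factors Foxq1 and Foxf2 had 542 and 759 CPM and 281 and 306 CPM in WT and cKO, with ratios of 0.48 and 0.12.

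Among 20 VEGF, angiopoietin and tip cell genes, 17 had at least 50 UMIs, with a median of -0.51. Flt1, 1 of the genes that chose the cells, stood at this median. None of the 17 was at least 2-fold higher and 3 were at least 2-fold lower, against 14.4% of all genes. Nrp1, the neuropilin co-receptor of VEGF and semaphorins, had 368 CPM (347 to 391) in WT and 78.9 CPM (63.7 to 96.7) in cKO, a log2 ratio of -2.21 (-2.54 to -1.92). It was found in 48.6% of WT and 14% of cKO members after thinning, stood at -2.20 (-2.63 to -1.81) in mural-poor cells and at -0.23 (-0.27 to -0.18) in remaining cells, and its homologue Nrp2 stood at 0.67 (0.24 to 1.09), or on the other side at -1.20 with at least 1000 genes and at most 5% mitochondrial UMIs. Cxcr4, the chemokine receptor of tip cells, had 85 and 9 UMIs (-1.83, -3.07 to -0.91), and Vegfc, a ligand of Flt4, 53 and 7 UMIs (-1.49, -2.96 to -0.44). Cxcr4 and Vegfc reached 50 UMIs only through WT, where they were high. The receptors Kdr (VEGFR2) and Flt4 (VEGFR3) stood at -0.56 (-0.69 to -0.43) and -0.84 (-1.32 to -0.40), and Tek (Tie2) and Tie1 at 0.29 (0.07 to 0.50) and 0.53 (0.35 to 0.70). The tip cell ligands Apln and Dll4 stood at -0.90 (-1.13 to -0.68) and -0.91 (-1.39 to -0.48), Aplnr, the receptor of apelin, at 0.01 (-0.15 to 0.17), and Pdgfb, which recruits pericytes, at 0.14 (-0.06 to 0.34). With that stricter cell filter, which left 59 WT and 10 cKO cells, Apln stood at 0.01 and Aplnr at -1.57, and after thinning Aplnr stood at 0.43. Esm1 and Pgf had 2 and 0 UMIs and 24 and 0 UMIs.

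Of 11 Notch genes, 10 had at least 50 UMIs, with a median of -0.27. None was at least 2-fold higher and 2 were at least 2-fold lower, against 14.4% of all genes. Notch4, the endothelial receptor, had 152 and 23 UMIs (-1.36, -2.08 to -0.74), and Heyl, a target, 84 and 8 UMIs (-1.97, -3.31 to -1.01). Notch4 and Heyl reached 50 UMIs only through WT, where they were high. Heyl was at 0 UMIs in the mural-poor cells of both libraries and at 100.2 CPM in WT mural cells. Notch1 stood at -0.20 (-0.46 to 0.04) and its targets Hes1 and Nrarp at -0.56 (-0.88 to -0.25) and -0.33 (-0.65 to -0.03).

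Arterial and venous genes were also read per cell. The 8 arterial core genes summed to 242 CPM in WT and 129.9 CPM in cKO endothelial cells, but also to 560.2 and 316 CPM in mural and 103 and 98.8 CPM in remaining cells, so a UMI of this core does not place a cell. The 8 venous core genes summed to 1781 and 1467 CPM, against 536 and 403 CPM in mural and 123 and 137 CPM in remaining cells. Slc38a5, a glutamine carrier of the venous core, was found after thinning in 88.0% of WT and 73.7% of cKO members, with median depths as given for Sox17, and in 0.560% and 0.188% of neurons. Unthinned it was found in 136 of the 146 WT and 56 of the 61 cKO cells. Without Slc38a5, 24 of 142 WT and 4 of 57 cKO thinned cells held UMIs of the arterial core alone, 51 and 28 of the venous core alone, 20 and 9 of both and 47 and 16 of neither. These counts are a description and carry no reading of identity.

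Single arterial and venous genes differed between the libraries. Of 13 arterial genes, 6 had at least 50 UMIs, with a median of -0.05. That median was -1.43 after thinning and 0.46 with the stricter cell filter, and the summed list stood at -0.62 (-0.82 to -0.43). Of the 6, 2 were at least 2-fold lower in cKO, against 14.4% of all genes, and none higher. Gja4 (connexin 37) had 164 CPM (149.5 to 179) in WT and 59.4 CPM (46.3 to 75.1) in cKO, a ratio of -1.45 (-1.85 to -1.10), and Fbln5 (fibulin-5) 57 and 8 UMIs (-1.42, -2.77 to -0.42), of which 1 WT cell gave 47.4%. Gja4 was also at 269.6 and 159 CPM in mural cells, and its ratio was -1.20 (-1.70 to -0.75) in mural-poor cells. Efnb2 and Hey1 stood at 0.02 (-0.62 to 0.61) and 0.30 (-0.24 to 0.82). Of 11 venous genes, 6 had at least 50 UMIs, with a median of 0.07. Against 4.6% of all genes, 1 was at least 2-fold higher, and none was lower. This was Lcn2, lipocalin-2, with 44 and 36 UMIs (1.06, 0.38 to 1.72), of which 1 cKO cell gave 80.6%. Vwf, von Willebrand factor, had 180.1 CPM (165 to 196) in WT and 347 CPM (314 to 383) in cKO (0.95, 0.76 to 1.13), or 1.38 (1.13 to 1.63) in mural-poor cells and 0.36 after thinning. At least 3 UMIs of Gja4 with fewer than 3 of Vwf were held by 20 of 146 WT and 1 of 61 cKO cells, the converse by 41 and 32, at least 3 of both by 28 and 5 and of neither by 57 and 23, in cells not thinned to equal depth. Nr2f2 and Ephb4, known venous genes, stood at 0.03 (-0.31 to 0.36) and 0.12 (-0.31 to 0.52), and at -1.61 and -0.33 with the stricter cell filter. Among 7 capillary genes, all with at least 50 UMIs, the median was -0.68. Against 14.4% of all genes, 3 were at least 2-fold lower, Mfsd2a, Tfrc and Cxcl12. Cxcl12, a chemokine, had 125 CPM (113 to 138) in WT and 49.2 CPM (37.4 to 63.6) in cKO (-1.33, -1.77 to -0.94) and -1.73 (-2.23 to -1.28) in mural-poor cells.

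Among genes of flow and vascular tone, all 10 had at least 50 UMIs, with a median of 0.24. Of these, 1 was at least 2-fold higher and 2 at least 2-fold lower, against 4.6% and 14.4% of all genes. Edn1, the vasoconstrictor endothelin-1, had 84.7 CPM (74.6 to 95.8) in WT and 422 CPM (386 to 461) in cKO, a ratio of 2.31 (2.09 to 2.54), was detected in 70 of the 146 WT and 47 of the 61 cKO cells, and stood at 2.43 (2.13 to 2.76) in mural-poor cells. Nos3, the endothelial nitric oxide synthase, went the other way, with 113 CPM (101 to 126) in WT and 50.1 CPM (38.1 to 64.6) in cKO (-1.16, -1.60 to -0.77), and so did Plec, a cytoskeletal linker, with 212 and 37 UMIs (-1.16, -1.72 to -0.67). In mural-poor cells Nos3 was below 2-fold at -0.98 (-1.48 to -0.53), and Plec stood at -1.41 (-2.15 to -0.78). The flow-induced factors Klf2 and Klf4 stood at 0.70 (0.60 to 0.80) and 0.01 (-0.21 to 0.22). Of 15 BMP and TGF-beta genes, 12 had at least 50 UMIs, with a median of 0.25. Against 4.6% of all genes, 1 was at least 2-fold higher, and none was lower. This was Id1, a target of BMP signalling, with 244 CPM (227 to 263) in WT and 575 CPM (532 to 619.6) in cKO (1.23, 1.08 to 1.39), or 0.70 as a mean over cells, 0.95 (0.76 to 1.15) in mural-poor cells and 0.45 in cells with no UMI of the other cell types' genes, and Id3 stood at -0.04 (-0.21 to 0.14). The receptors Eng and Acvrl1 stood at -0.06 (-0.18 to 0.06) and -0.59 (-0.88 to -0.32).

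Basement membrane genes were abundant. Of 16, 15 had at least 50 UMIs and none was at least 2-fold higher or lower, with a median of 0.11. Sparc, a matricellular protein, had 4273 CPM (4199 to 4348) in WT and 5525 CPM (5392 to 5661) in cKO (0.37, 0.33 to 0.41) and Col4a1, a collagen IV chain, 1134 CPM (1096 to 1173) in WT and 1179.9 CPM (1119 to 1244) in cKO (0.06, -0.03 to 0.15). The summed level was 8771 and 10447 CPM, a log2 ratio of 0.25 (0.22 to 0.28). Itga6, a laminin receptor subunit, stood highest at 0.90 (0.64 to 1.15) and Itga5, a fibronectin receptor subunit, lowest at -0.79 (-1.42 to -0.24). Itga6 was past 2-fold in mural-poor cells at 1.01 (0.68 to 1.34).

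The pathway of STING itself was thinly covered. Of 19 genes of nucleic acid sensing and NF-kB, 12 had at least 50 UMIs, with a median of -0.22. Against 14.4% of all genes, 3 were at least 2-fold lower in cKO, and none was higher. The 3 were Tmem173, Irf3 and Nfkb2. Irf3, the interferon regulatory factor downstream of STING, had 103 and 14 UMIs (-1.49, -2.46 to -0.73) and stood at -1.71 (-1.94 to -1.49) in remaining cells. Nfkb2, a precursor of the p52 subunit, had 46 and 6 UMIs (-1.50, -3.12 to -0.37). The DNA sensor cGAS (Mb21d1) had 23 and 3 UMIs and the kinase Tbk1 59 and 22 UMIs (-0.06, -0.86 to 0.65). Nfkbia, an inhibitor and target of NF-kB, had 419.9 CPM (397 to 444) in WT and 502 CPM (462 to 544) in cKO (0.26, 0.11 to 0.40), and Nfkb1 and Rela stood at 0.24 (-0.07 to 0.54) and -0.18 (-0.61 to 0.22). Trex1 had 0 UMIs in both libraries, but its last 500 bases lie wholly within transcripts of Atrip, so its count is uncertain.

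The interferon response list summed to 803 CPM in WT and 667 CPM in cKO, below mural cells at 1047 and 988 CPM and above remaining cells at 175 and 168 CPM. Of 16, 8 had at least 50 UMIs and none was at least 2-fold higher or lower, with a median of -0.41. Ifitm3, an antiviral membrane protein, had 236 CPM (219 to 254) in WT and 140.1 CPM (119.5 to 163) in cKO (-0.75, -1.01 to -0.51) and Bst2 (tetherin) 92.7 CPM (82.1 to 104) in WT and 66.2 CPM (52.3 to 82.6) in cKO (-0.48, -0.87 to -0.12). Ifit1, Ifit3, Isg15 and Irf7, sensitive reporters of interferon, had 1 and 0 UMIs, 2 and 0 UMIs, 32 and 8 UMIs and 30 and 5 UMIs, below the minimum of 50. In mural-poor cells Isg15 stood at -0.39 (-2.11 to 0.99) and Irf7 at -1.77 (-5.22 to 0.06), intervals that span 0. The receptor chains Ifnar1 and Ifnar2 stood at 0.22 (-0.03 to 0.47) and 0.56 (0.26 to 0.86). Of 9 MHC class I genes, 5 had at least 50 UMIs and none was past 2-fold, with a median of -0.04, and B2m, the light chain, had 213 CPM (197 to 231) in WT and 241 CPM (214 to 271) in cKO (0.18, -0.03 to 0.38).

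Immediate early and stress genes, which dissociation also induces, were near or below 2-fold. Of 14, 12 had at least 50 UMIs and none was at least 2-fold higher or lower, with a median of 0.38. Jun stood at 0.90 (0.80 to 0.99), Fos at 0.59 (0.36 to 0.82), Dusp1, a phosphatase that glucocorticoids induce as well, at 0.51 (0.31 to 0.71), Egr1 at -0.55 (-0.84 to -0.29) and Hsp90aa1 at -0.81 (-1.02 to -0.61). Atf3, a stress-induced transcription factor, was the lowest at -0.95 (-1.64 to -0.35), and was past 2-fold in mural-poor cells at -1.54 (-2.57 to -0.72). With at least 1000 genes and at most 5% mitochondrial UMIs, Atf3 stood at -2.50 and Egr1 at -1.45, and with TMM scaling Jun stood at 1.03. Endothelial cells had a median of 5.24% mitochondrial UMIs in WT and 6.22% in cKO. The part of RNA quality in the ratios above was not tested.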

How the data were processed

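Cells of 1 WT and 1 cKO mouse library were profiled by droplet single-cell RNA sequencing. The authors deposited a raw count of UMIs per gene and barcode for each library. The submitters' processing notes name STAR, Cell Ranger 2, Seurat and mm9, whereas the matrix headers name Cell Ranger 3.0.1. A combined matrix of both libraries was not used. The members, gene lists and alternatives were chosen with earlier results of these data known, and 4 of the alternatives (the WT Scrublet threshold, mural-poor cells, cells without blood RNA, and the 5 deepest cells left out) were added after these counts had been analysed. Counts past 2-fold were planned for all lists. Following those of the glucocorticoid and fasting list and the cell division list across settings was not planned. Counts were summed over cells per library (Python 3.11.15, scipy 1.17.1) and ratios of CPM carried 0.5 added UMIs. Mural cells had at least 5 UMIs of the 4 mural genes and more than of the endothelial ones, and microglia at least 5 of the C1q genes and more than of both. Named genes were those of the lists, the 25 most enriched over other kept cells, and the 12 highest and 12 lowest ratios of CPM + 10 of cKO over WT with at least 50 UMIs and intervals that did not overlap, leaving out mitochondrial, haemoglobin, ribosomal protein and sex-linked genes. Thinning to 2000 UMIs left out 4 WT and 4 cKO endothelial cells. Doublets were kept. Scrublet (scanpy 1.11.5) marked 165 WT and 0 cKO cells at its automatic thresholds, so it did not work in cKO, and the WT threshold was applied to both libraries as an alternative. TMM factors came from edgeR 4.0.16. The ratio step was tested on simulated data. Shared words of 31 bases were searched in GENCODE transcripts on GRCm38. Values of some list members are not reported here.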

Additional observations from a re-analysis of the deposited data

Results flagged for a closer look

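A few named genes had ratios of at least 2-fold in opposite directions in endothelial and in remaining cells. With 1 library per genotype the difference itself was not tested. The haemoglobin genes Hba-a1 and Hba-a2 stood at log2 ratios of 1.03 and 1.28 in endothelial cells and -1.52 and -1.41 in remaining cells, differences of 2.55 and 2.69. They were found in 18 and 11 WT and 14 and 9 cKO endothelial cells. 93.6% and 90% of the sequence words at their ends occur in transcripts of other genes, mainly each other, so their separate ratios are uncertain. Both were below 2-fold without the 2 endothelial cells of each library above the Scrublet threshold of the WT library, at 0.50 and 0.51, where the erythroid list's median was 0.51, and Hba-a1 stood at 0.47 after thinning. Other settings gave larger ratios, with 1.98 (1.91 to 2.06) and 2.75 (2.01 to 3.62) in mural-poor cells, 2.90 for Hba-a1 in cells with no UMI of the other cell types' genes and 3.17 for Hba-a2 with at least 1000 genes and at most 5% mitochondrial UMIs. Lcn2 stood at 1.06 and -2.27, a difference of 3.33, and Stfa1 at 3.47 and -1.56, a difference of 5.03. A single cKO cell gave 80.6% of the Lcn2 and 100% of the Stfa1 UMIs of the cKO endothelial cells.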

How the results depend on the processing

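None of the named genes and lists that were at least 2-fold higher or lower changed direction under the alternatives run, while some smaller ratios changed sign. The other genes were followed by their counts alone. Of 79 named genes at least 2-fold higher or lower, 57 were so in each setting where they could be read, and 22 were not, among them Tmem173 (past 2-fold in 12 of 14, read whatever its UMIs, and at -0.80 after thinning), Tfrc (in 7 of 14), Tsc22d3 and Id1 (10 of 14 each), Nos3 and Fzd4 (10 of 13 each), Ube2c (9 of 13) and Egfl7 (11 of 14). Gja4 and Mfsd2a were so in 13 of 14, with smallest values of -0.43 and -0.58. Of 208 named genes below 2-fold, 56 were past it in at least 1 setting, 27 of them with the stricter cell filter, and 5 with the opposite sign, Aplnr, Nr2f2 and Nrp2 with that filter and Cenpf (-1.80) and Rgs5 (1.12) in mural-poor cells. Of 3413 comparisons of 286 named genes with an alternative, 505 moved by more than the counting error of the ratio over all endothelial cells. The counting error of the alternative itself, larger where fewer cells were left, was not taken into account. With at least 1000 genes and at most 5% mitochondrial UMIs (59 and 10 cells), the share differed by -2.79 points and Tmem173 stood at -0.19. There, 707 of 4519 genes (15.6%) were at least 2-fold lower, and the cell division median was -2.83. Of the glucocorticoid and fasting genes, 3 of 5 were at least 2-fold higher, against 6.95% of all genes. With 0 UMIs of the other cell types' genes, the share differed by -0.173 points, and 324 of 3626 genes (8.94%) were lower. Of the cell division genes, 5 of 5 were lower with a median of -2.48. Without a cell filter the share differed by -0.661 points. After thinning, 64 of 1392 genes (4.60%) were higher and 96 (6.90%) lower. In that setting 3 of 5 glucocorticoid and fasting genes were higher, and no cell division gene reached 50 UMIs. Gene minimums of 20 and 100 UMIs gave 1834 of 9972 (18.4%) and 661 of 5841 (11.3%) lower genes, and that of 20 a glucocorticoid and fasting median of 1.44. There were 4 alternatives added after these counts were analysed, and so chosen after seeing the data. Among them, mural-poor cells gave 15 of 16 lower cell division genes, against 13.1% of all genes, and a median of -2.18. Leaving out the 5 deepest cells of each library gave a median of -2.04. Leaving out cells with blood RNA gave a smaller difference, with 7 of 16 lower, against 13.5% of all genes, and a median of -0.78. So did TMM scaling, with 8 of 16 and -0.94. TMM scaling gave 539 (6.85%) higher and 924 (11.7%) lower genes. Scrublet at its automatic threshold was not run as an alternative, since it marked 0 cKO cells. The causes were not tested. No paired analysis was possible because each genotype had 1 library. Ratios of genes with few UMIs, such as Tmem173 with 8 in cKO, are limited by depth.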
